A study of Mus musculus with 24 samples.

Results

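Satellite glial cells wrap the cell bodies of sensory neurons in the dorsal root ganglion (DRG), and 9 genes used as their markers are described here across RNA-seq, MeRIP-seq and miCLIP data from mouse DRG. The genes are Gfap, Fabp7, Glul, Slc1a3, Apoe, S100b, Gja1, Cdh19 and Entpd2. They were chosen by symbol, and are 9 of the 24421 genes of the RNA-seq count table and 9 of the 24411 genes of the MeRIP-seq count table. All 9 passed the filter on low counts in both tables. The study, on epitranscriptomic regulation of axon regeneration, compared wild-type mice with Mettl14cKO mice, before and after a lesion of the sciatic nerve.

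All libraries came from lumbar DRG (L4/5) of C57BL/6 mice. The 12 RNA-seq libraries form 4 groups of 3, which are wild-type naive, wild-type SNLD1, Mettl14cKO naive and Mettl14cKO SNLD1. SNLD1 stands for day 1 after the sciatic nerve lesion, and the knockout libraries are titled Mettl14cKO and carry the genotype label Mettl14-/-. The 10 MeRIP-seq libraries, in which RNA was pulled down with an antibody to N6-methyladenosine (m6A), are all wild-type, with 3 pull-down (IP) and 2 input libraries in each of the naive and SNLD1 conditions. The 2 miCLIP libraries, which map m6A to single bases, are wild-type, 1 naive and 1 after the lesion (SNL, with no day in its title). Every library carries the same surgery label, sham or nerve crush, so whether the naive mice had a sham operation is not settled here. The sources used here do not give the Cre driver, the ages of the mice or whether replicates were separate animals, so p-values measure the spread between these libraries, which may be in part technical.

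As background, satellite glia take up and recycle glutamate, buffer potassium, pass signals through gap junctions and break down extracellular ATP around the neurons they enclose. After a nerve lesion they become reactive, and the intermediate filament gene Gfap, low in resting satellite glia of mice, is the usual readout of that state. Several of the 9 genes are shared with other glia. Examples, not a full list, are S100b and Cdh19 with Schwann cells, and Gfap, Slc1a3, Gja1 and Glul with astrocytes of the central nervous system. m6A is written on messenger RNA by a complex of Mettl3 and Mettl14.

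Total counts per library ran from 5707837 to 12639160 in RNA-seq and from 846785 to 19653733 in MeRIP-seq. Levels are given as CPM (counts scaled to a common library size), relative to the TMM-adjusted total of the genes that passed the filter. They are compared within a gene only, since no transcript lengths were used. A gene was called where its edgeR quasi-likelihood p-value, adjusted by Benjamini-Hochberg over all genes tested, was under 0.05. The targeted gene Mettl14 measured 19.4 to 24.1 CPM in the 6 wild-type libraries and 14.2 to 18.9 CPM in the 6 Mettl14cKO libraries, with no overlap, so most of its counts remained in the ganglia of Mettl14cKO mice (15.8 ± 1.81 against 21.7 ± 1.93 CPM, SD, n = 6 and 6). The sources used here do not say which part of the gene is deleted, and counts per gene do not show whether the remaining RNA holds it. A single library stood apart from its group: Mettl14cKO naive 1 had the lowest Mettl14 level of the 12, but its Mettl3 (46.0 CPM) lay within the wild-type range of 44.0 to 54.4 CPM, while the other 5 Mettl14cKO libraries measured 26.9 to 33.8 CPM. Neuronal markers were abundant in every library (8 genes summing to 7590 to 11245 CPM).

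Gfap was the gene of the 9 that rose after the lesion. In wild-type mice it measured 0.193, 0.273 and 0.456 CPM in the naive libraries, from 2, 2 and 6 counts. In the wild-type SNLD1 libraries it measured 2.91, 3.43 and 5.98 CPM, from 19, 30 and 49 counts. Every injured library was above every naive one, by a fitted log2 difference of 3.62 (SE 0.57, edgeR adjusted p = 0.00185, n = 3 and 3), or 12.3-fold. The call held when any 1 of these 6 libraries was left out, with log2 differences of 3.25 to 4.08. In bulk ganglia, more Gfap RNA per cell and more cells that express it cannot be told apart.

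In Mettl14cKO mice Gfap measured 0.299, 1.92 and 0.497 CPM in the naive libraries and 2.49, 3.66 and 2.24 CPM in the SNLD1 libraries. The groups did not overlap, but naive library 2 lay close to the injured ones, and the log2 difference of 1.70 (SE 0.55) missed the threshold with an edgeR adjusted p of 0.215. The fitted lesion responses of Mettl14cKO and wild type differed by a log2 of -1.92 (SE 0.83), with an unadjusted p of 0.0324 and an edgeR adjusted p of 0.998, so a difference between genotypes was not called. Averaged over both genotypes, Gfap rose by a log2 of 2.66 (SE 0.40, edgeR adjusted p = 0.000602), with the 6 naive libraries at 0.193 to 1.92 CPM and the 6 SNLD1 libraries at 2.24 to 5.98 CPM. Groups separated upward in this way, all 6 above all 6, in 1.44% of the 13291 genes tested.

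For the other 8 genes no difference between naive and SNLD1 was called in either genotype. Read against all 13291 genes, 1.02% were called in wild type, 0.685% in Mettl14cKO and 2.56% over both genotypes, in either direction. The median log2 difference of the 9 genes was -0.05 in wild type and 0.10 in Mettl14cKO, beside -0.01 and 0.01 over all genes. Upward separation of injured from naive libraries was found for 1 of the 9 genes, Gfap, in each genotype, while it held for 6.08% of all genes in wild type and 8.32% in Mettl14cKO.

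**Figure D1:**
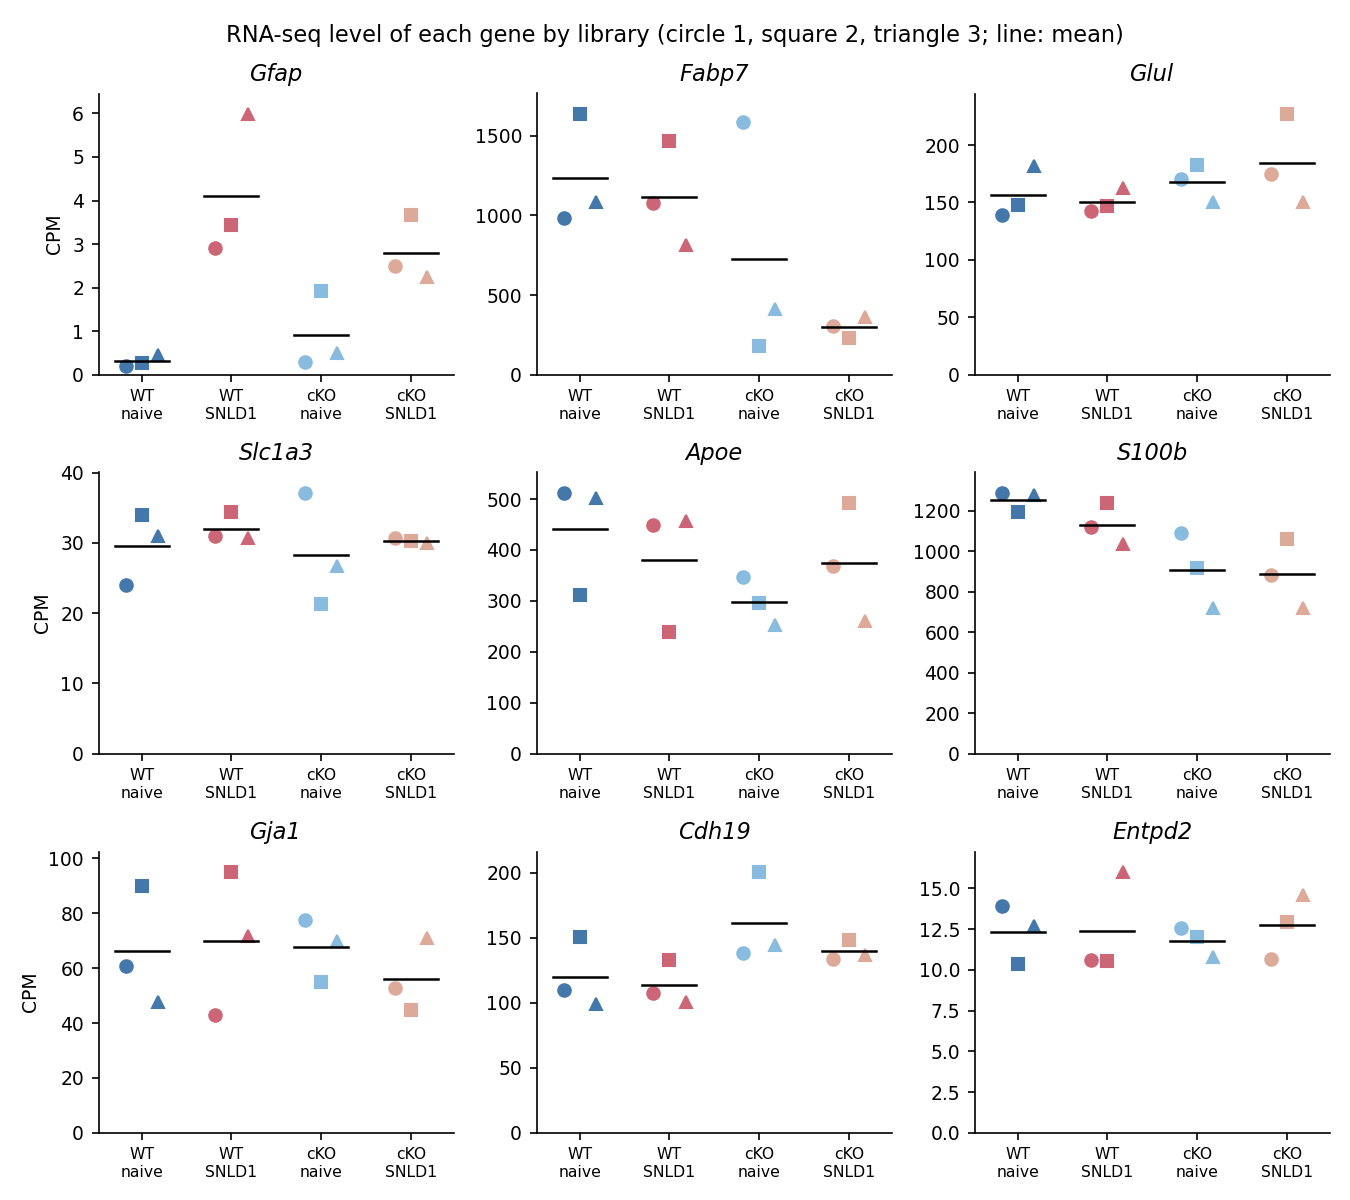
RNA-seq levels in CPM (vertical axes, from 0) of the 9 genes in the 12 libraries, by genotype and condition (WT, wild type; cKO, Mettl14cKO), with a point per library and a line at the group mean. Gfap is at or above 2.24 CPM in all 6 SNLD1 libraries and at or below 1.92 CPM in all 6 naive ones, and Fabp7 in the Mettl14cKO naive 1 library (circle) is at 1586 CPM while the other Mettl14cKO libraries are at or below 413 CPM.

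The Gfap promoter is shown because Gfap is the gene of the 9 that the lesion raised. The window holds 250 bases before and 50 from the start of transcription (RefSeq, GRCm38.p6, chr11:102897151-102897450, minus strand, 5′ to 3′), with capitals at a match to the STAT motif TTCNNNGAA.
Gfap promoter: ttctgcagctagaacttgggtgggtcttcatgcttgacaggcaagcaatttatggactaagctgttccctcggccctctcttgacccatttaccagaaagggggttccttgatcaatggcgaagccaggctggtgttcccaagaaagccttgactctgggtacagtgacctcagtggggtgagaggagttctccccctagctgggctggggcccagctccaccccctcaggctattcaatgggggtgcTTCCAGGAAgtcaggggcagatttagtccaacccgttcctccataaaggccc
The match, TTCCAGGAA, runs from base -2 to base 6, with the start base counted as 0. The motif is its own reverse complement, so the match lies on both strands and has no orientation. A match to TTCNNNGAA on either strand is found in 8.30% of the 32851 mouse promoter windows in the table. No match to the AP-1 motif TGANTCA or to the SOX motifs ACAAAG and ACAATG, searched on both strands, is in the Gfap window. These are matches of letters and not measured binding.

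Markers of other cells were read beside the Gfap result. Of 8 astrocyte markers, the 7 other than Gfap summed to 31.6 to 42.9 CPM in the 6 naive libraries and to 35.1 to 40.0 CPM in the 6 SNLD1 libraries, so they overlapped. Over the 12 libraries, Aqp4 lay at 9.02 to 21.5 CPM, Aldh1l1 at 3.35 to 9.44, Gjb6 at 1.84 to 9.05, Mlc1 at 2.09 to 5.37, Agt at 2.24 to 5.05 and Slc1a2 at 1.77 to 4.39 CPM, while Slc6a11 reached at most 0.580 CPM. Of the oligodendrocyte genes, Opalin was at 0 in all 12 libraries, and Mog and Mobp reached at most 0.281 and 0.178 CPM. The 10 macrophage markers summed to 63.3 to 82.6 CPM in wild-type naive and to 88.1 to 101 CPM in wild-type SNLD1 libraries, and to 78.7 to 119 and 77.9 to 166 CPM in the Mettl14cKO libraries. The 8 markers of non-myelinating or repair Schwann cells summed to 654 to 994 CPM in the 6 naive libraries. In the 6 SNLD1 libraries they summed to 648 to 1000 CPM, so these sums overlapped. The part of macrophages or of Schwann cells in the Gfap result was not tested.

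Genes known to act upstream of Gfap, through the gp130 receptor, STAT3 and Notch, were read as a list of 19, of which 16 were tested. In wild type 2 of the 16 were called, both higher, and the same count was called in Mettl14cKO. Il6, a cytokine that signals through gp130, went from 0.936 ± 0.504 CPM in the wild-type naive libraries to 12.3 ± 3.29 CPM after the lesion (SD, n = 3), a log2 difference of 3.79 (SE 0.42, edgeR adjusted p = 3.63e-05). Socs3, the feedback inhibitor of STAT3 signalling, went from 0.827 ± 0.383 to 4.58 ± 2.01 CPM (log2 2.38, SE 0.44, edgeR adjusted p = 0.00944), a call kept in 4 of the 6 refits without 1 library. In Mettl14cKO the log2 differences were 5.51 (SE 0.55) for Il6 and 3.33 (SE 0.53) for Socs3. The median log2 difference of the 16 genes was 0.06 in wild type and 0.12 in Mettl14cKO.

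Of 14 genes of glial intermediate filaments and reactive glia, 13 were tested. Over both genotypes 5 rose and none fell, namely Timp1, Steap4, Serpina3n, Cd44 and S1pr3, with a median log2 difference of 0.46 over the 13. The list names a gene set only, and in bulk ganglia the cells in which these 5 genes rose were not identified. Timp1, an inhibitor of matrix metalloproteinases, went from 3.81 ± 0.891 CPM in naive to 21.1 ± 5.46 CPM in SNLD1 libraries (SD, n = 6 and 6), a log2 difference of 2.49 (SE 0.20, edgeR adjusted p = 2.16e-07). Steap4, a metalloreductase, rose by a log2 of 0.73 (SE 0.11, edgeR adjusted p = 0.00103). Serpina3n, a serine protease inhibitor, rose by 0.67 (SE 0.16, edgeR adjusted p = 0.0224), and Cd44, a receptor for hyaluronan, by 0.46 (SE 0.11, edgeR adjusted p = 0.028). The calls of Serpina3n and Cd44 each rested on the full set of libraries, holding in 6 and 5 of the 12 refits that left out 1 library.

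The 3 genes whose level followed that of Gfap most closely over the 12 libraries were Timp1 (Pearson r = 0.94), Gabra5 (r = 0.93) and Smad1 (r = 0.93), out of 9561 genes. These are correlations of log2(CPM + 0.5), given as a description, and the libraries share their group structure. None of the other 8 satellite glia genes was among them, and the nearest was Glul with r = 0.26.

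Fabp7, the brain-type fatty acid binding protein, which carries lipids in satellite glia and in immature glia, was the gene of the 9 called between genotypes. It measured 984, 1635 and 1084 CPM in wild-type naive libraries and 1075, 1468 and 812 CPM in wild-type SNLD1 libraries. In Mettl14cKO it measured 1586, 181 and 413 CPM in the naive libraries and 303, 229 and 362 CPM in the SNLD1 libraries. Thus 5 of the 6 Mettl14cKO libraries were below every wild-type library, and Mettl14cKO naive 1, the library that stood apart in Mettl3, was within the wild-type range.

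Over both conditions Fabp7 was lower in Mettl14cKO by a log2 of -1.34 (SE 0.35, edgeR adjusted p = 0.0418), that is 2.53-fold lower. Without Mettl14cKO naive 1 the log2 difference was -1.98 (edgeR adjusted p = 7.98e-05). The call was lost when any of 9 other libraries was left out (all 6 wild-type libraries, Mettl14cKO naive 3, and Mettl14cKO SNLD1 1 and 2), with an edgeR adjusted p of at most 0.100, and by DESeq2 (adjusted p = 0.0758). At day 1 alone all 3 Mettl14cKO libraries were below all 3 wild-type ones (log2 -1.91, SE 0.50, edgeR adjusted p = 0.0627), a downward separation that 10.3% of all genes showed. In the naive condition the groups overlapped (log2 -0.76, SE 0.48, edgeR adjusted p = 0.811), and the difference was called without Mettl14cKO naive 1 (log2 -2.05, edgeR adjusted p = 0.00876). The refits without that library leave out the value that goes against the difference, so they are no independent support for it. Its Mettl3 level is no independent reason to leave it out, since Mettl3 followed Fabp7 over the 12 libraries (r = 0.96).

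The change of Fabp7 with the lesion was -0.14 (SE 0.48) on the log2 scale in wild type and -1.29 (SE 0.49, edgeR adjusted p = 0.318) in Mettl14cKO. The second value sets 3 injured libraries against a naive group that spans 181 to 1586 CPM. The difference between both responses was not called (log2 -1.14, SE 0.68, edgeR adjusted p = 0.998).

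Of all genes, 3.33% were called between genotypes over both conditions, 1.46% at day 1 and 0.286% in the naive condition, so 1 called gene among 9 is a small count. The median log2 difference of the 9 genes over both conditions was -0.07, beside 0.00 for all genes. None of the 9 had all 6 Mettl14cKO libraries below all 6 wild-type ones, which held for 0.805% of all genes. For the difference between the lesion responses of both genotypes, 0.0% of genes were called by edgeR. At an unadjusted p under 0.05 there were 492 of 13291 genes, among them 1 of the 9, Gfap, and DESeq2 called 3 genes, none of the 9.

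Some markers of other cells differed between genotypes beside Fabp7. The 6 fibroblast markers summed to 3278 to 3973 CPM in wild-type and to 4319 to 10549 CPM in Mettl14cKO libraries, with no overlap. Of these, Apod, Dcn and Pdgfra were called higher in Mettl14cKO over both conditions. Only 4 of the 6 had a log2 difference above 0 (median 0.48), so the sum does not stand for each marker. The sum of 10 myelinating Schwann cell markers overlapped between the genotypes (2978 to 5210 CPM in wild type and 3607 to 4367 CPM in Mettl14cKO). Cldn11, an oligodendrocyte marker of the lists, was higher in Mettl14cKO (log2 1.16, SE 0.20, edgeR adjusted p = 0.00278). Of the 3 tested genes of that list it was the 1 with a log2 difference above 0, and their median was -0.03. The neuronal gene Nefl was lower in Mettl14cKO (log2 -0.79, SE 0.14, edgeR adjusted p = 0.00465), and the macrophage gene Cd163 was higher (log2 1.84, SE 0.29, edgeR adjusted p = 0.0016). Each was the 1 gene called in this comparison, of 8 neuronal and 10 macrophage markers, with list medians of -0.13 and 0.28. The neuronal sum was 9118 to 11245 CPM in wild type and 7590 to 10410 CPM in Mettl14cKO. The macrophage sum was 63.3 to 101 and 77.9 to 166 CPM, so both sums overlapped between genotypes. The part of these cells in the Fabp7 result was not tested.

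The genes closest to Fabp7 over the 12 libraries were Mettl3 (r = 0.96), Rcn1 (r = 0.94) and D17H6S56E-5 (r = 0.93), as a description. Of 6 genes of fatty acid binding and its receptors, 5 were tested and 1, Fabp4, was called, in the opposite direction. Fabp4, the adipocyte-type binding protein, measured 3.1 ± 2.65 CPM in wild type and 32.3 ± 44.7 CPM in Mettl14cKO (SD, n = 6 and 6), a log2 difference of 2.65 (SE 0.65, edgeR adjusted p = 0.0308) that held in 5 of the 12 refits without 1 library and was lost with Y-linked expression as a covariate.

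The Fabp7 promoter is printed beside that of Gfap, chosen after the values were seen, as the other gene called (RefSeq, GRCm38.p6, chr10:57784673-57784972, plus strand, 5′ to 3′). It holds no match to any of the 4 motifs, so no base is in capitals, which says only that these letters are not in this window.
Fabp7 promoter: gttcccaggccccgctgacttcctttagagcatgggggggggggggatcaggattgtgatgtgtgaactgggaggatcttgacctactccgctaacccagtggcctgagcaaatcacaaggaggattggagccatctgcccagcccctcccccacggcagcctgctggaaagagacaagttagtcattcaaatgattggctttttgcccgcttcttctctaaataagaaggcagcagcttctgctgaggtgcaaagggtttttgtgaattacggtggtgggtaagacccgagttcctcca

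**Figure D2:**
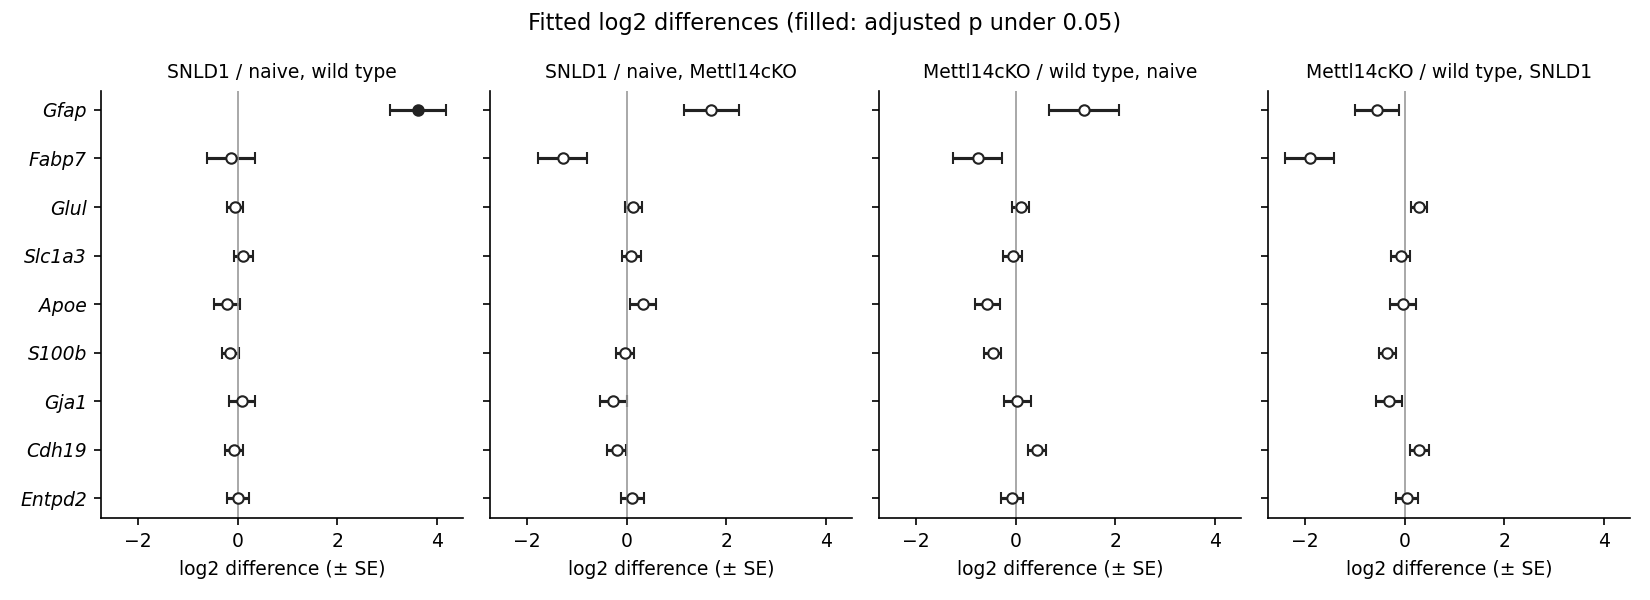
Fitted log2 differences of the 9 genes (horizontal axis, bars are 1 SE) in 4 RNA-seq comparisons, lesion against naive in each genotype and Mettl14cKO against wild type in each condition, with filled points where the edgeR adjusted p was under 0.05. Gfap in wild type (3.62) is the one filled point, and Fabp7 at day 1 (-1.91) has the lowest value between genotypes.

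Glul and Slc1a3 carry the glutamate cycle of satellite glia. Slc1a3 (GLAST) takes up glutamate and Glul (glutamine synthetase) turns it into glutamine. Glul ranged from 139 to 227 CPM and Slc1a3 from 21.3 to 37.1 CPM over the 12 libraries, and neither was called in any RNA-seq comparison. In wild type the lesion differences were -0.05 (SE 0.17) for Glul and 0.12 (SE 0.19) for Slc1a3 on the log2 scale. Of 14 other genes of glutamate and glutamine handling that were tested, none was called with the lesion and 1 was called between genotypes. That gene, the neutral amino acid transporter Slc1a5, went from 8.82 ± 1.18 CPM in wild type to 14.1 ± 3.79 CPM in Mettl14cKO (log2 0.66, SE 0.17, edgeR adjusted p = 0.0408), a call kept in 3 of the 12 refits without 1 library. The gene closest to Slc1a3 over the libraries was Aif1, a macrophage marker (r = 0.93), and the one closest to Glul was Hfe (r = 0.88).

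Apoe, the main lipid carrier secreted by glia, measured 511, 312 and 503 CPM in wild-type naive, 449, 239 and 456 CPM in wild-type SNLD1, 347, 296 and 253 CPM in Mettl14cKO naive and 368, 492 and 261 CPM in Mettl14cKO SNLD1 libraries. In both wild-type groups library 2 was the lowest, and the groups overlapped in every comparison. The lesion difference was -0.21 (SE 0.26) in wild type and 0.32 (SE 0.26) in Mettl14cKO on the log2 scale. Of 17 tested genes of lipid transport around Apoe, 1 was called with the lesion in wild type. That gene, Abca1, which loads cholesterol onto apolipoproteins, rose by a log2 of 0.90 (SE 0.19, edgeR adjusted p = 0.0218), a call kept in 3 of the 6 refits without 1 library. Between genotypes, Apod, another lipid carrier and also one of the fibroblast markers above, was higher in Mettl14cKO by 0.97 (SE 0.18, edgeR adjusted p = 0.00468).

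S100b, a calcium-binding protein of satellite glia and Schwann cells, measured 1287, 1195 and 1278 CPM in wild-type naive and 1122, 1239 and 1035 CPM in wild-type SNLD1 libraries. It measured 1091, 920 and 719 CPM in Mettl14cKO naive and 884, 1060 and 722 CPM in Mettl14cKO SNLD1 libraries. Over both conditions the log2 difference between genotypes was -0.41 (SE 0.12), with an edgeR adjusted p of 0.0786 and a DESeq2 adjusted p of 0.0345, so the call depends on the tool. The edgeR call was also made without Mettl14cKO naive 1 (adjusted p = 0.0389) or without Mettl14cKO SNLD1 2. Both are the Mettl14cKO libraries of highest S100b level, so these refits are no independent support. Of 7 other tested genes of S100 proteins and their receptor, S100a11 was the one called with the lesion, by a log2 of 0.78 over both genotypes (SE 0.13, edgeR adjusted p = 0.00239).

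Gja1 encodes connexin 43, a gap junction channel of glia, and Cdh19 a cadherin of the satellite glia and Schwann cell lineage. Gja1 ranged from 42.9 to 94.9 CPM with overlap in every comparison, and no gene of 8 tested for gap junctions and pannexins was called in any RNA-seq comparison. Cdh19 measured 99.4 to 150 CPM in the 6 wild-type and 134 to 200 CPM in the 6 Mettl14cKO libraries. Its log2 difference between genotypes was 0.36 (SE 0.13, edgeR adjusted p = 0.153, or 0.0276 with Y-linked expression as a covariate), opposite in sign to that of Fabp7 and S100b. Of 6 other glial cadherins tested, Cdh11 was lower with the lesion over both genotypes (log2 -0.51, SE 0.12, edgeR adjusted p = 0.0319), in 5 of the 12 refits without 1 library, and no other was called.

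Entpd2 encodes the ectonucleotidase that splits extracellular ATP on satellite glia. It lay between 10.4 and 16 CPM in the 12 libraries, with log2 differences of 0.00 (SE 0.22) and 0.12 (SE 0.22) with the lesion in wild type and Mettl14cKO. Of 14 other tested genes of nucleotide breakdown and purine receptors, 1 was called, Nt5e, the enzyme that makes adenosine from AMP. Nt5e went from 104 ± 25.3 CPM in naive to 213 ± 39.2 CPM in SNLD1 libraries (SD, n = 6 and 6), a log2 difference of 1.03 (SE 0.14, edgeR adjusted p = 0.000259).

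A list of 18 other satellite glia genes was read, and all 18 were tested. None was called with the lesion in either genotype, and the median log2 difference was -0.11 in both. Over both conditions 1 was higher and 1 lower in Mettl14cKO. Ptprz1, a receptor-type phosphatase of glial precursors, went from 32.7 ± 3.95 CPM in wild type to 19.0 ± 5.81 CPM in Mettl14cKO (SD, n = 6 and 6), with no overlap (log2 -0.83, SE 0.14, edgeR adjusted p = 0.00343). Lgi4, a secreted glial protein needed for peripheral myelination, was higher by 0.56 (SE 0.15, edgeR adjusted p = 0.0442), a call kept in 3 of the 12 refits without 1 library.

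In the MeRIP-seq data no gene was called by edgeR in any of 5 comparisons, so 0.0% of 14705 genes were called for IP over input in naive and in SNLD1, for its change with the lesion, and for the lesion within IP and within input. For IP over input, 915 genes in naive and 608 in SNLD1 had an unadjusted p under 0.05, and DESeq2 called 4 and 0 genes. For the change with the lesion, the lesion within IP and the lesion within input, 30, 124 and 126 genes had an unadjusted p under 0.05, and DESeq2 called 0, 8 and 1. The SEs of the 9 genes for IP over input ran from 0.77 to 1.88 on the log2 scale. The IP libraries numbered 3 differed from those numbered 1 and 2 in several of the 9 genes, as the values below show.

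Of the 9 genes, Entpd2 had the lowest ratio of pull-down to input. It measured 45.1 and 13.8 CPM in the naive inputs and 25 and 37.1 CPM in the SNLD1 inputs. In the IP libraries it measured 0.936, 2.83 and 1.82 CPM in naive and 1.32, 7.36 and 5.13 CPM in SNLD1. Every IP library was below every input library, which held for 5.77% of genes. The log2 difference was -4.10 (SE 1.06, edgeR adjusted p = 0.71) in naive and -2.79 (SE 0.99, edgeR adjusted p = 0.791) in SNLD1.

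Fabp7 measured 1395 and 1692 CPM in the naive inputs and 1065 and 734 CPM in the SNLD1 inputs. In IP libraries 1 and 2 it measured 229 and 131 CPM in naive and 173 and 97.3 CPM in SNLD1, but in the third IP libraries 1419 and 1019 CPM. The third libraries were thus at the level of the inputs, and the log2 differences of -1.38 (SE 1.09) and -1.06 (SE 1.09) were not called. Cdh19 and Gja1 also set the third IP libraries apart. Cdh19 measured 7.98 and 13 CPM there and 56.4 to 170 CPM in the other 4 IP libraries, and Gja1 37.3 and 37.6 CPM against 79.2 to 117 CPM. The inputs spanned 7.49 to 152 CPM for Cdh19 and 24.8 to 104 CPM for Gja1.

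Gfap in MeRIP-seq was seen mostly after the lesion. It had 0.644 and 0.202 CPM in the naive inputs, and 0.156, 0 and 0 CPM in the naive IP libraries. After the lesion it had 1.98, 21.5 and 2.17 CPM in the IP libraries, but 0 and 21.2 CPM in the inputs. The SNLD1 input at 0 is also the shallower of the pair (927807 counts in all), and whether depth accounts for the 0 was not tested. The SNLD1 input and IP libraries numbered 2 were at 21.2 and 21.5 CPM, and the other SNLD1 libraries at 0 to 2.17 CPM. The log2 difference with the lesion within IP was 6.23 (SE 1.84, unadjusted p = 0.00373, edgeR adjusted p = 1), a value fitted against a group with libraries at 0, so its size depends on the prior count of the fit.

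Apoe and S100b were abundant in both kinds of library. Apoe measured 443 and 319 CPM in the naive inputs and 688, 597 and 752 CPM in the naive IP libraries (log2 0.83, SE 0.82, edgeR adjusted p = 0.773). After the lesion the inputs spanned 258 to 1016 CPM and the IP libraries 741 to 1166 CPM. S100b ran from 1422 to 2912 CPM in the 4 inputs and from 957 to 3985 CPM in the 6 IP libraries. Glul and Slc1a3 overlapped between IP and input in both conditions, with Glul at 108 to 184 CPM in the inputs and 99.1 to 278 CPM in the IP libraries. Slc1a3 lay at 11 to 37.2 CPM and 14.1 to 24.2 CPM.

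**Figure D3:**
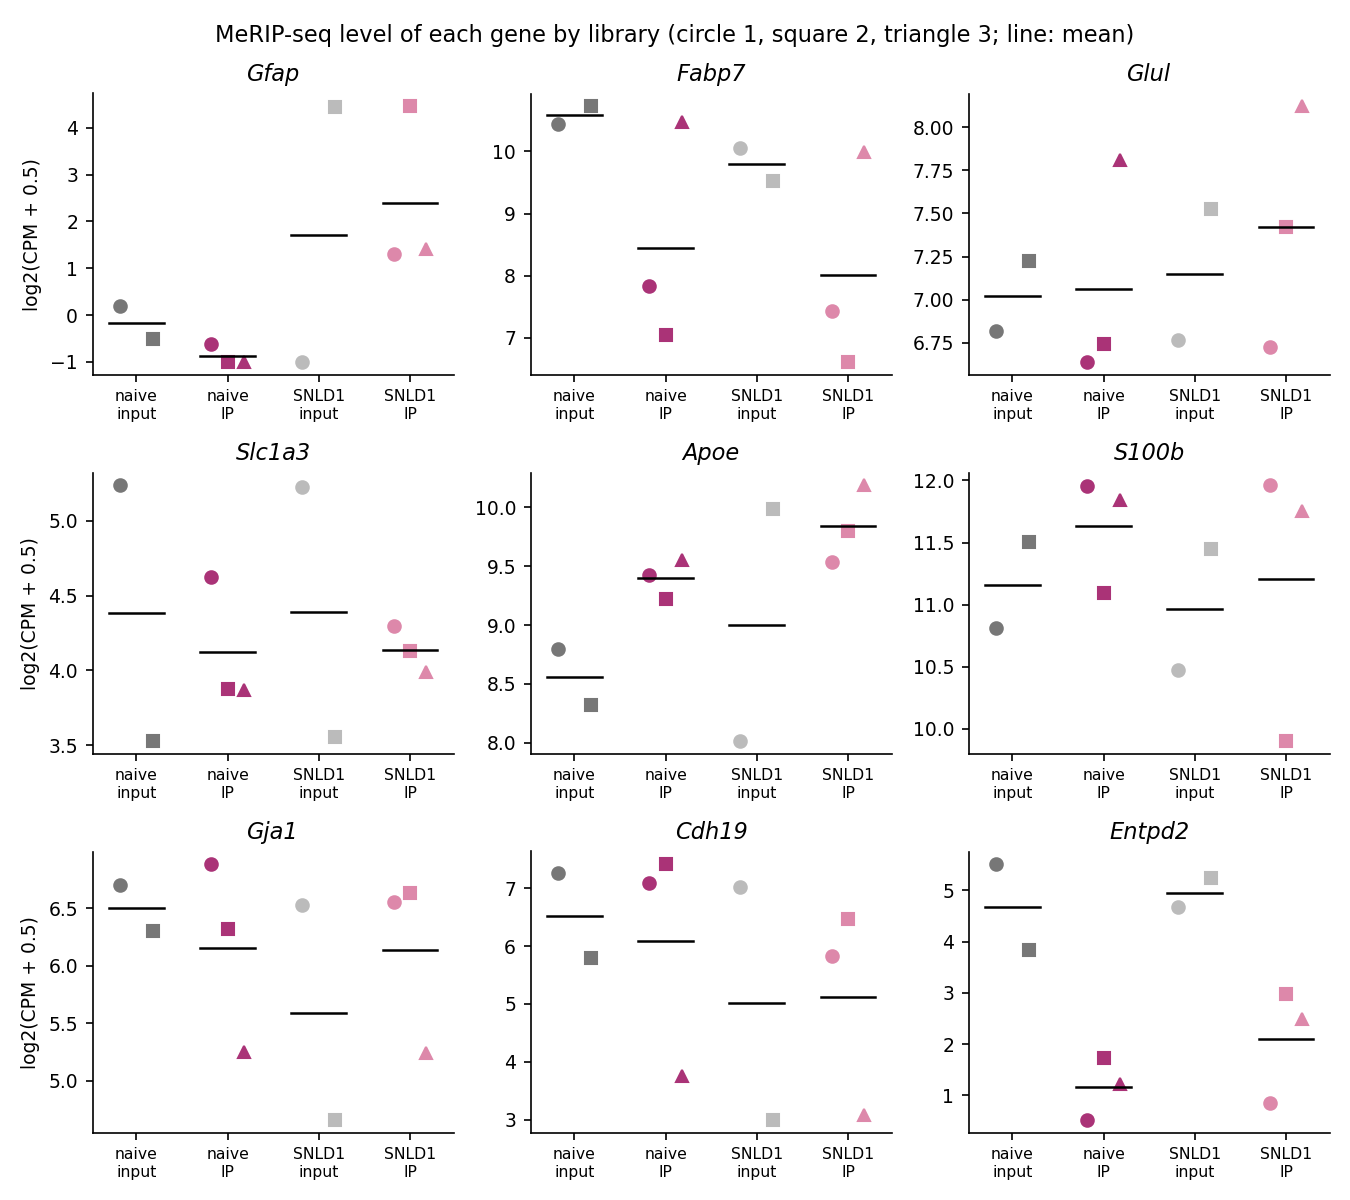
MeRIP-seq levels of the 9 genes as log2(CPM + 0.5) (vertical axes, not from 0) in the 4 input and 6 IP libraries, with a symbol per library number and a line at the mean of the plotted values. Entpd2 is lower in every IP than in every input library, and the third IP libraries (triangles) lie near the inputs for Fabp7 and below the other IP libraries for Cdh19 and Gja1.

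The miCLIP lists held 14446 sites in the naive and 18677 in the SNL library, 1 library each, so no test was made. Each site is a single A, and the deposited fraction is the share of reads over that base that carry the antibody-induced mutation. The 9 genes held 23 sites in the naive list and 32 in the SNL list, 43 distinct sites in all, of which 12 were in both. Those 12 are 52.2% of the naive and 37.5% of the SNL sites of the 9 genes, beside 26.5% and 20.5% over all sites. These shares were not matched for coverage. Of the 12, 7 were in Apoe, with 17 to 47 reads, and 4 in S100b, while the median over all sites was 4 reads in each list. Of the 9 genes, 7 had at least 1 site, and 43.5% of 13259 tested genes did. Evidence per site was thin, with 1 mutated read at 39 of the 55 listings (70.9%, beside 89.9% over all sites).

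S100b and Apoe held 32 of the 43 distinct sites. S100b (chr10:76253836-76261319) had 9 sites in the naive and 14 in the SNL list, and Apoe (chr7:19696244-19701310) had 9 and 11. Glul had 3 and 4. Fabp7 and Gja1 had 1 site each in the naive list, Gfap had 2 and Cdh19 1 in the SNL list. No site was listed in Slc1a3 or Entpd2. Fabp7 and S100b had close mean counts in the wild-type naive RNA-seq libraries (12143 and 12958) with 1 and 23 listings. RNA-seq counts do not give miCLIP coverage, which was not matched. The Fabp7 site had 2 reads and S100b sites had up to 54, and the gene spans are 3528 and 7484 bases. Of the 85 tested genes with at least the count of Fabp7, 75.3% had more sites than Fabp7.

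The sites with at least 3 mutated reads in either list, and those of Gfap and Fabp7, are shown with 2 bases on each side. The capital marks the listed A, positions are on mm10, and the sequence is read in the sense of the RNA, in DNA letters.
S100b chr10:76260033: tgAcc
S100b chr10:76260070: agAcc
Apoe chr7:19696547: agAcc
Apoe chr7:19696606: tgAcc
Apoe chr7:19696651: tgAcc
Apoe chr7:19697021: agAca
Gfap chr11:102887499: agAca
Gfap chr11:102896934: agAca
Fabp7 chr10:57786287: agAca

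The S100b site at 76260033 had the most mutated reads of the 9 genes, 9 of 45 in the SNL library (20.0%, exact 95% interval 9.58% to 34.6%) and 4 of 35 in the naive library (11.4%, 3.20% to 26.7%). The site at 76260070 had 4 of 20 (20.0%) in SNL and 1 of 9 (11.1%) in naive. No test of the difference was made. The Apoe site at 19697021 went the other way, with 5 of 47 reads (10.6%, 3.55% to 23.1%) in naive and 2 of 44 (4.55%, 0.555% to 15.5%) in SNL. Intervals cover counting error only. Both Gfap sites and the Fabp7 site rested on 1 mutated read of 2.

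Among the 5-base contexts of the 43 distinct sites, TGACC (18.6%) and AGACA (16.3%) were the most frequent, beside 9.48% and 6.78% over all sites. Of the 42 distinct sites in the genes with a known strand, 27 (64.3%) lay in the last 1500 bases of the gene span, beside 25.2% of 21362 distinct sites over all tested genes with a known strand. S100b and Apoe have short spans (7484 and 5067 bases), so that window covers a larger share of them. Exon annotation was not used here.

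**Figure D4:**
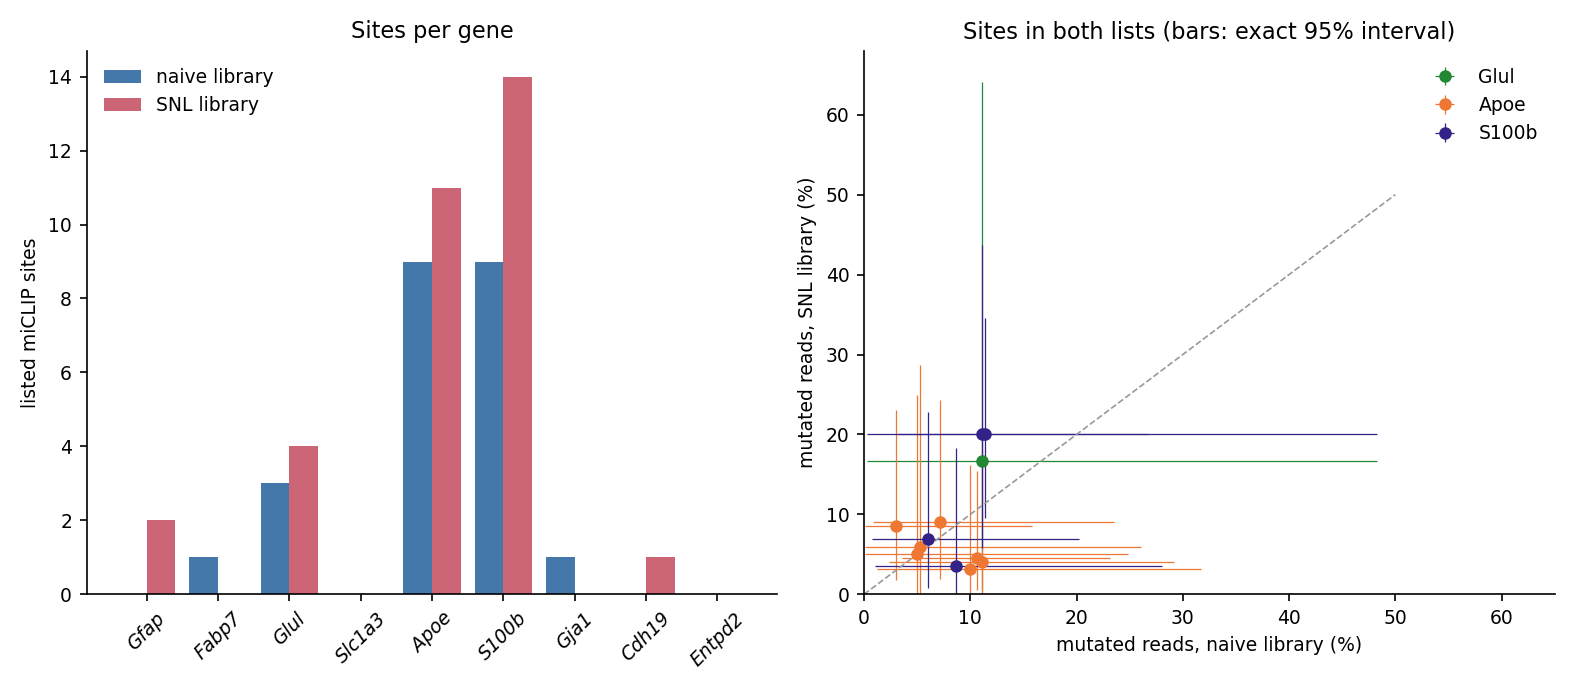
Left, number of listed miCLIP sites per gene in the naive and SNL libraries (bars from 0). Right, percent of mutated reads in the naive (horizontal) and SNL (vertical) library for the 12 sites in both lists, with exact 95% intervals and a dashed line of equality. S100b (9 and 14 sites) and Apoe (9 and 11) hold most sites, and the S100b site with 11.4% in naive and 20.0% in SNL has the most mutated reads, 9 in SNL.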

How the data were processed

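RNA-seq (12 libraries), MeRIP-seq (10) and miCLIP (2) data of mouse DRG were used. The count tables hold the authors' deposited raw counts per gene symbol. Per the labels' protocols, RNA was extracted with Trizol, selected for poly(A) and made into Smart-seq2 libraries, which do not mark strand, so reads of overlapping genes cannot be told apart. Per the submitters' processing notes, Trimmomatic, STAR, DESeq2 and mm10 were used. The sources used here give no versions, roles, counter or miCLIP site caller. Each deposited miCLIP list gives, per site, the fraction of reads with a mutation.

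Counts were fitted with edgeR 4.0.16 (filterByExpr, TMM, quasi-likelihood test) over the 4 groups of a table, with 13291 RNA-seq and 14705 MeRIP-seq genes kept. The SE is the log2 difference divided by the root of F. The procedure was tested on simulated data. DESeq2 1.42.0, upper-quartile scaling, no filter, a stricter filter (at least 1 CPM in 3 RNA-seq or 2 MeRIP-seq libraries), leaving out each library, a block on the replicate number and fits of only the libraries compared were alternatives. Y-linked expression as a covariate, and a fit of only the IP libraries with a block, were added after seeing the data. For counts from single libraries, exact binomial (Clopper-Pearson) 95% intervals cover counting error only.

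The 9 genes and the gene lists were chosen with earlier results of these data known. Named were all 9 genes, up to 4 called genes of smallest p per list and comparison (or the 1 of smallest p where none passed), and the 3 genes of highest Pearson r with each of the 9 (genes of at least 5 CPM on average). Promoter windows (250 bases before and 50 from the start) came from RefSeq GRCm38.p6, where 8 of the 9 genes matched. A miCLIP site was counted in a gene whose RefSeq span held it on the gene's strand, and on either strand for Cdh19, whose strand was not in the table. The listed base was the third of its 5-base context at all 681 sites in promoter windows. Same-numbered naive and SNLD1 IP libraries deviated together (3 pairs, correlations 0.47 to 0.73). RNA-seq libraries of 1 number did not do so in every pair (-0.06 to 0.57). Some genes of the lists are not reported here.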

Additional observations from a re-analysis of the deposited data

How the results depend on the processing

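Gfap kept its call in wild type and over both genotypes under each alternative run, and Fabp7 between genotypes did not (0 to 2 of the 9 genes called when 1 library was left out). In the naive condition 0 to 1 gene was called between genotypes when 1 library was left out. Without the filter on low counts, Fabp7 was also called for the lesion in Mettl14cKO, between genotypes in naive and in SNLD1, and for the difference between lesion responses (1 gene each), and 2 genes were called for the lesion over both genotypes (Fabp7, Gfap) and 2 between genotypes over both conditions (Fabp7, S100b). There the SE of Fabp7 between genotypes was 0.12 instead of 0.35. The cause was not tested. Between genotypes in SNLD1, Fabp7 was the 1 gene called in a fit of only the 6 libraries compared, and with the Y-linked covariate, which called 2 genes (Cdh19, Fabp7) over both conditions. With the replicate block, 3 genes were called between genotypes (Cdh19, Fabp7, S100b), 2 for IP over input in naive (Entpd2, Fabp7) and 1 in SNLD1 (Fabp7). It raised the all-gene calls for IP over input from 0 to 48 higher and 1030 lower in naive and 44 higher and 892 lower in SNLD1. RNA-seq numbers and IP and input numbers are shared labels only, and 6 of 12 RNA-seq libraries correlated best with their own number. For the paired IP libraries the block changed no call of the 9 genes. Sites with at least 3 mutated reads were found in 2 of the 9 genes. Over the alternatives, the share of all genes called ran from 0.436% to 1.59% for the lesion in wild type, 0.354% to 1.44% in Mettl14cKO and 1.57% to 3.54% over both. Between genotypes it ran from 0.0903% to 0.902% in naive, 0.278% to 3.13% in SNLD1 and 1.73% to 4.87% over both. Of the 105 pairs of gene and comparison that were not called, 60 changed sign under an alternative, and of 48 calls of list genes 24 were lost without 1 library. Depth limited Gfap in naive libraries (2 to 11 counts) and the miCLIP sites.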

Other observations

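Promoter windows of the other satellite glia genes were searched for the motifs used for Gfap, and the matches are given as letters only, with the start base counted as 0. Slc1a3 holds a match to the STAT motif, TTCCAAGAA, at bases -96 to -88. Entpd2 holds a match to the AP-1 motif at bases -99 to -93 and Gja1 at bases -19 to -13, a motif that 7.81% of all promoter windows hold. Of the 3 Apoe windows, 1 holds a match to each of both SOX motifs, which are found in 18.7% and 12.57% of all windows. Glul and S100b hold no match in their windows.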
